A study of Homo sapiens with 48 samples.

Results

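The nonsense-mediated decay factors were examined as 9 genes, UPF1, UPF2, UPF3A, UPF3B, SMG1, SMG5, SMG6, SMG8 and SMG9, matched by Ensembl identifier among the 14685 genes counted. All 9 were found at each time point, and all passed the filter on low counts. A plasmid for NCBP1 fused to Halo was transiently transfected into HEK293T, a line derived from human embryonic kidney, and RNA was sequenced 3, 6 and 12 h after T-REX, a method in which a photocaged electrophile bound to Halo is released by light so that the fused protein is modified. T-REX and its 3 controls, named DMSO, probe alone and light alone, each had 4 libraries per time point, 48 in all. All arms carried the plasmid, including the controls, and the labels give the genotype as WT. T-REX cells received the probe Ht-PreHNE and light. Light alone cells were, by the study's methods, also given both, probe alone cells were kept from light, and DMSO cells had neither probe nor light. Transient transfection reaches only part of the cells, and the RNA is bulk, so that a change in the share of cells and a change in RNA per cell cannot be told apart.

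Nonsense-mediated decay removes mRNAs on which translation ends too early, and also tunes many normal transcripts. A terminating ribosome recruits the RNA helicase UPF1, and UPF2 with UPF3B or its paralog UPF3A can bridge UPF1 to an exon junction complex that still lies downstream. The kinase SMG1, held in check by SMG8 and SMG9, phosphorylates UPF1, which then binds SMG5 and the endonuclease SMG6. NCBP1, which holds the cap-binding subunit on the cap of nuclear RNA, is known to bind UPF1 on newly made mRNAs. The mRNAs of several of these factors are themselves decay targets, through which the pathway adjusts its own parts.

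Library totals ran from 23952455 to 37099535 counts (median 29405598.5), and the members had between 549 and 26081 counts in a library. NCBP1 counts, in which the plasmid and the endogenous gene are not separated, differed between arms. As group means, they were 3.46% to 8.29% of the library total scaled by TMM factors, the scaling described below. Of 4 markers fixed for HEK293T cells, NEFL, NEFM and LIN28B were listed and PAX2 was not, and 0 of 5 markers of blood, liver or muscle were listed.

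Levels are given as CPM, each library's counts scaled to the same total with TMM factors over all 48 libraries, and per length as RPKM, CPM divided by the summed exon length in kilobases. Per length, SMG1 (mean 28.7 RPKM over the 48 libraries) and SMG5 (28.2 RPKM) stood highest. Their library ranges, 24.4 to 33.2 RPKM for SMG1 and 20.7 to 36.1 RPKM for SMG5, overlapped. UPF3B followed at 22.3 RPKM, then UPF2 at 12.96, SMG6 at 11.1, UPF1 at 10.5, SMG8 at 8.72, SMG9 at 5.90 and UPF3A at 3.89 RPKM. UPF2, SMG6 and UPF1 did not separate, with library ranges of 11.3 to 14.8, 8.91 to 12.8 and 6.83 to 16.9 RPKM. UPF3A, the paralog with the weaker known activity, stood at the 42.1st percentile of all genes per length and SMG1 at the 92.3rd. When the longest coding transcript was used in place of all exons, SMG1, SMG5 and UPF3B kept the first places, UPF2 moved to the 6th and UPF3A moved above SMG9. The 7 SMG1 pseudogenes, SMG1P1 to SMG1P7, were also counted, with 187 to 1058 counts in a library and 97.2 to 131 CPM when their group means were summed, so that SMG1 reads may be shared with them. SMG1 and SMG6 overlap exons of other genes on the opposite strand, and SMG8 overlaps AC099850.2 on its own strand, so that SMG8 counts are less certain.

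**Figure D1:**
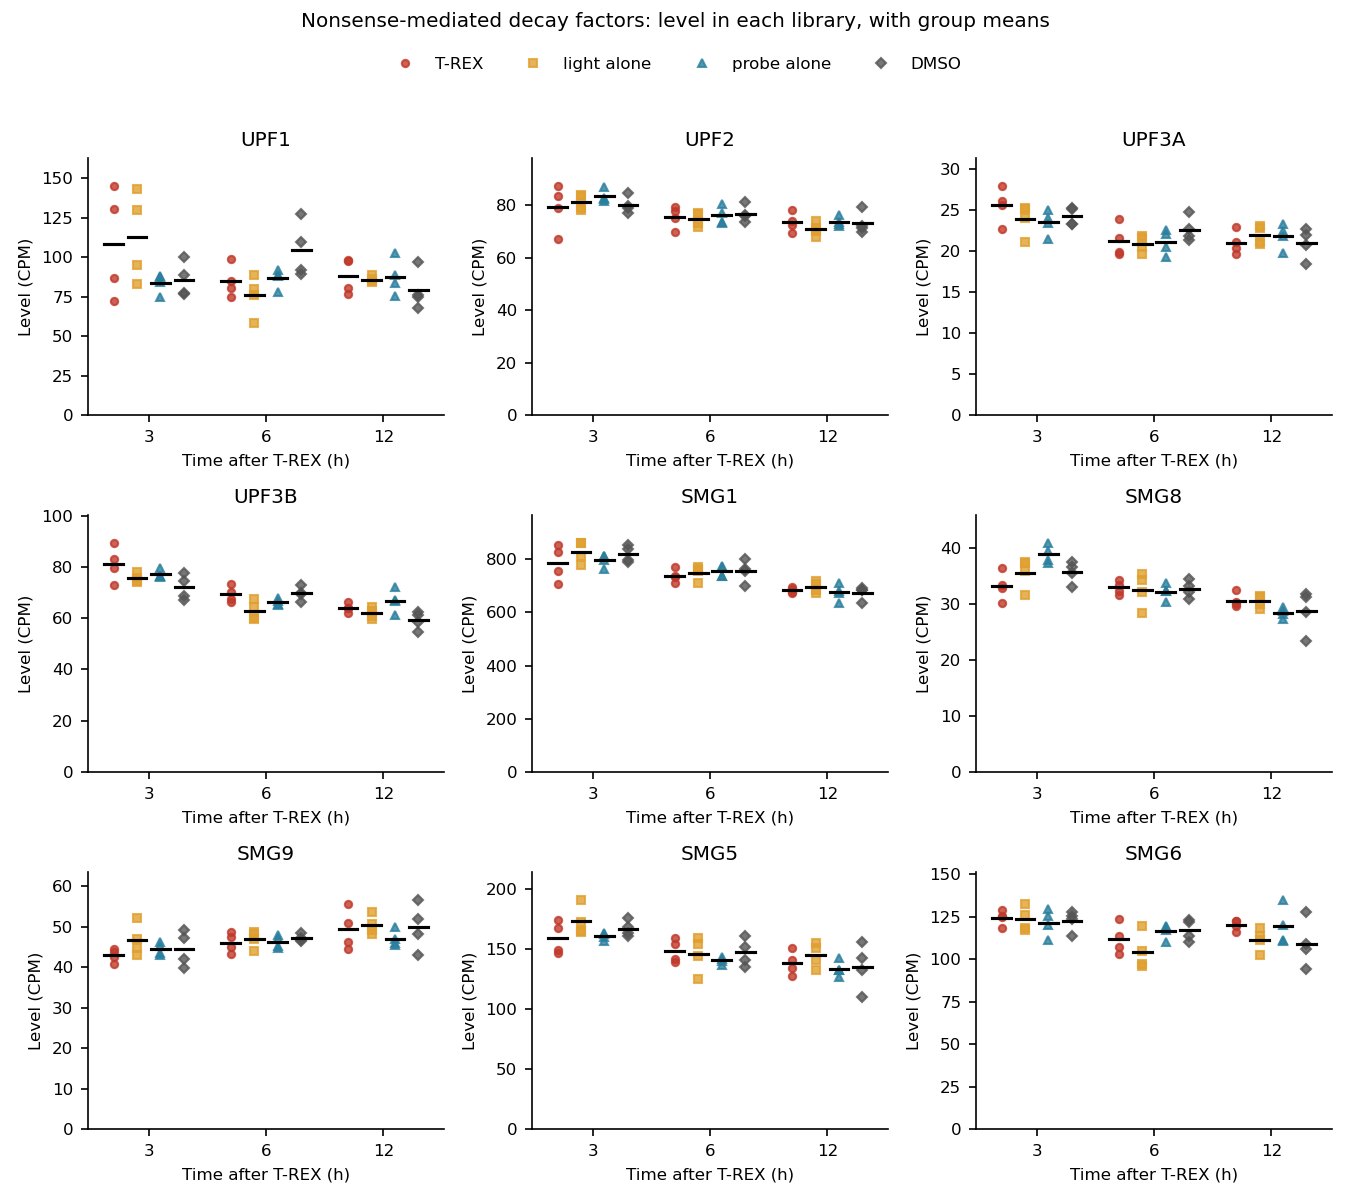
Level of each nonsense-mediated decay factor in CPM (linear axis from 0) at 3, 6 and 12 h, with a point for each of 4 libraries per arm and a black bar for the group mean. UPF1 spread most at 3 h, where T-REX libraries lay between 72.0 and 146 CPM, while UPF3B, SMG1 and SMG5 sat lower at 12 h than at 3 h in every arm.

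T-REX was first compared with each control at each time point, which asks whether modification of NCBP1 changed the mRNA level of the decay factors. None of the 9 members was called (adjusted p of at most 0.05 in edgeR's quasi-likelihood test, Benjamini-Hochberg over all genes) against any control at any time. At 3 h, the share of all genes called was 0.197% for light alone as the control, 1.05% for probe alone and 5.99% for DMSO. At 6 h, it was 0.218%, 0.109% and 0.415% in the same order, and at 12 h it was 1.29%, 0.701% and 10.9%. Against shares of this size, a count of 0 of 9 is not a result about the members. Of the 81 tests of members with T-REX, 5 had an unadjusted p under 0.05, and DESeq2 called 0. In the same comparisons, 964 to 3957 of the 14685 genes had an unadjusted p of at most 0.05, and DESeq2 called 57 to 2069 genes. No member was called in 1 direction against at least 2 of 3 controls, a rule that 0.947%, 0.136% and 1.4% of all genes met at 3, 6 and 12 h.

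The intervals of these differences were narrow for all members except UPF1. For the other 8 members, the log2 fold changes lay between -0.21 and 0.18 in 72 tests, and their 95% confidence intervals reached from -0.35 to 0.30, or 0.783-fold to 1.23-fold. Their standard errors were between 0.044 and 0.086 on the log2 scale. For UPF1, standard errors reached 0.23 at 3 h, and its intervals reached from 0.677-fold to 1.86-fold over the 9 comparisons. The UPF1 intervals reached from 0.682-fold to 1.86-fold at 3 h and from 0.677-fold to 1.34-fold at 6 h. At 12 h they reached from 0.864-fold to 1.30-fold, with standard errors up to 0.104. A change of UPF1 inside the interval of a comparison was not excluded by that comparison.

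**Figure D2:**
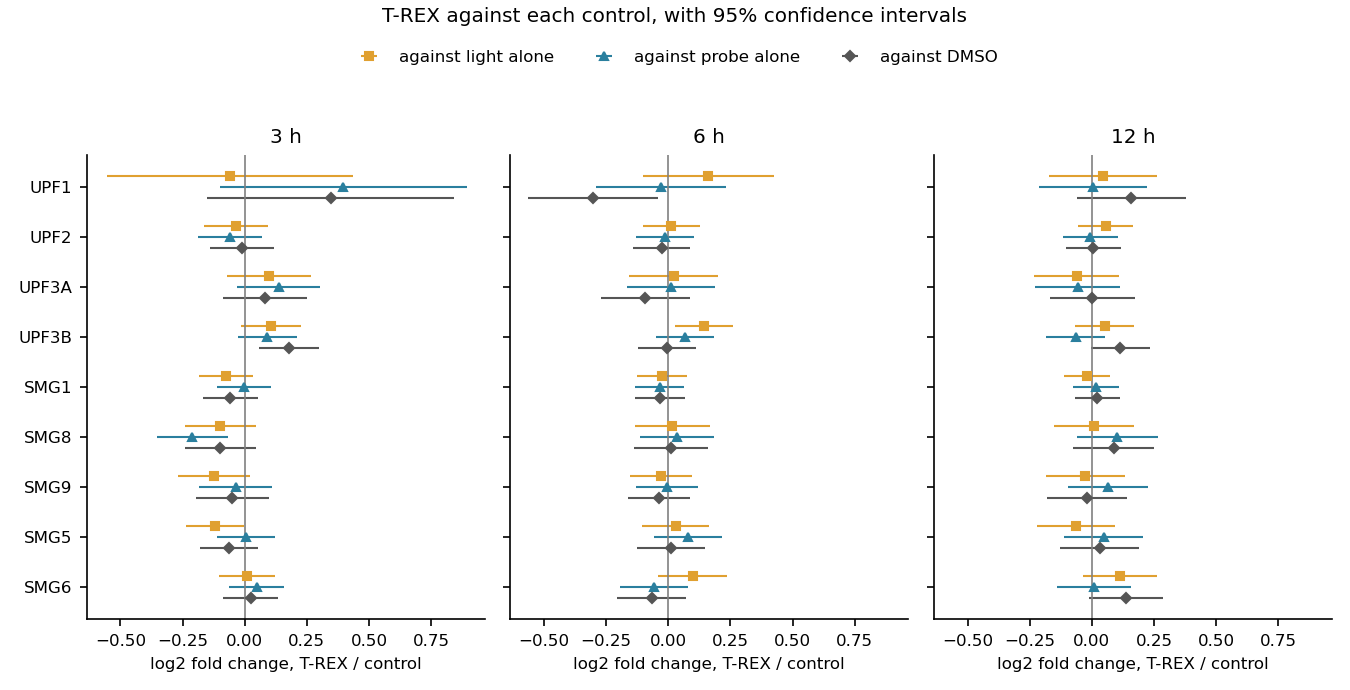
log2 fold change of T-REX over each control (points) with 95% confidence intervals (bars) for the 9 members at 3, 6 and 12 h. Values lay between -0.30 and 0.40, no member was called, and the bars of UPF1 at 3 h, with standard errors near 0.23, were the widest.

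UPF1, the helicase at the centre of the pathway, varied most between libraries of the same arm. Its T-REX libraries at 3 h stood at 72.0, 87.1, 146 and 130.4 CPM. The light alone libraries stood at 95.2, 143, 130.3 and 83.4 CPM. Probe alone gave 87.3, 74.9, 84.4 and 88.1 CPM, and DMSO gave 88.6, 76.7, 101 and 77.4 CPM. Thus a pair of libraries in each light-exposed arm was high and the other pair lay near the unexposed arms, and T-REX overlapped every control. The T-REX mean was 109 ± 34.8 CPM (SD, n = 4) against 85.8 ± 11.2 CPM with DMSO, with a log2 fold change of 0.35 (standard error 0.23, adjusted p = 0.410).

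At 6 h the order of the UPF1 means was different. T-REX libraries had 75.2, 85.2, 80.7 and 99.2 CPM of UPF1, and DMSO libraries had 109.7, 92.2, 128 and 89.5 CPM. The groups overlapped, and the log2 fold change of T-REX against DMSO was -0.30 (standard error 0.12, unadjusted p = 0.0264, adjusted p = 0.322). Light alone was lower than DMSO by a larger estimate, -0.46 on the log2 scale, which also was not called (adjusted p = 0.162). At 12 h the UPF1 means were 88.4 ± 11.3 CPM under T-REX, 79.1 ± 12.7 with DMSO, 87.9 ± 11.3 with probe alone and 85.9 ± 2.07 with light alone (SD, n = 4).

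The pooled SD of UPF1 within arms was 0.240 on the log2 scale, at the 94.8th percentile of 10134 genes with a mean log2 CPM above 3, whose median SD was 0.113. The other members had SDs between 0.064 (SMG1) and 0.111 (SMG5). UPF1 transcripts are rich in G and C, 60.5% against a median of 47.96% over coding genes, at the 87.8th percentile. A high GC content was not particular to UPF1, since SMG5 had 57.6%, SMG9 55.3% and SMG6 55.3%. The SDs of these members, 0.111 (SMG5), 0.096 (SMG9) and 0.103 (SMG6), lay below the median SD of all genes. In each library, the deviations of 9439 genes from their group means were fitted on GC content, and the slope ran from -0.202 to 0.169 log2 units per 10% GC. Over the 48 libraries the UPF1 deviation followed this slope (Pearson's r = 0.909, Spearman's rho = 0.9198, and r = 0.886 without the 2 libraries farthest from the median slope). Both quantities come from the same counts and libraries, so the correlation is a description. UPF1 also followed the first of 2 deposited factors of unwanted variation (RUV), which the authors give for each library, with r of -0.960 at 3 h, 0.916 at 6 h and -0.633 at 12 h over 16 libraries each, the last falling to -0.424 without the 2 farthest libraries. This was not particular to UPF1, since SMG1 gave r = 0.9497 at 3 h and SMG8 gave r = -0.954 at 12 h. Within arms, over the 48 libraries, UPF1 correlated with the other members at r from -0.713 (SMG1) to 0.265 (SMG9). The part of GC content in the UPF1 differences was not tested.

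**Figure D3:**
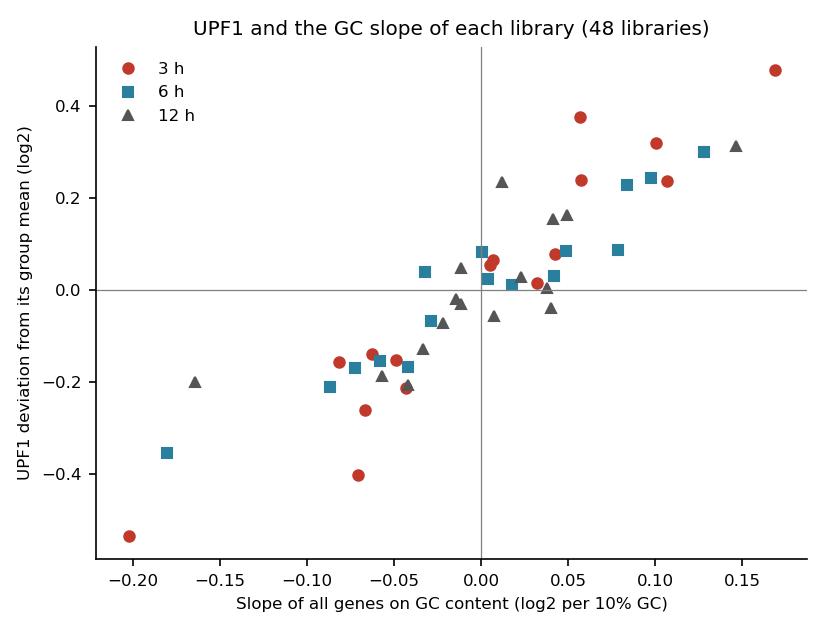
UPF1 deviation from its group mean (log2) against the slope of all genes on GC content (log2 per 10% GC), with a point for each of 48 libraries, marked by time point. UPF1 was high in libraries with a positive slope and low in those with a negative slope (r = 0.909).

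With the 2 RUV factors as covariates, 7 of the 81 tests with T-REX were called, 4 of them for UPF1. UPF1 was then higher under T-REX than with probe alone at 3 h by 0.36 on the log2 scale (adjusted p = 2.26e-07) and higher than with DMSO by 0.31 (adjusted p = 1.44e-06), but was not called against light alone (-0.07, adjusted p = 0.291). Light alone was in turn higher than DMSO at 3 h by 0.39 (adjusted p = 6.13e-08). At 6 h, UPF1 was lower under T-REX than with DMSO (-0.30, adjusted p = 0.000232) and higher than with light alone (0.17, adjusted p = 0.0329). The other calls were SMG8 against probe alone and UPF3B against DMSO at 3 h, and SMG6 against DMSO at 12 h. These covariates raised the calls over all genes as well, to 11.8% (light alone), 17.4% (probe alone) and 20.8% (DMSO as the control) at 3 h, to 8.19%, 1.75% and 7.14% at 6 h, and to 8.62%, 6.14% and 26.7% at 12 h. How the RUV factors were made is not given in the sources used here. They follow the spread within arms of these same counts, so the adjusted p-values with them may be too small.

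UPF2 and the UPF3 paralogs bridge UPF1 to the exon junction complex. UPF2 stood at 79.2 ± 8.87 CPM under T-REX at 3 h against 80.1 ± 3.32 with DMSO (SD, n = 4), with a log2 fold change of -0.01. UPF3B had the smallest p of all members with T-REX. Its T-REX libraries at 3 h stood at 89.5, 79.7, 83.1 and 72.9 CPM, and the DMSO libraries at 68.8, 74.6, 67.2 and 77.5 CPM. The lowest T-REX library lay within the DMSO range. The log2 fold change of UPF3B was 0.18 (standard error 0.058, unadjusted p = 0.00557, adjusted p = 0.0682), and it was called without T-REX replicate 4, the low library (1 member called in place of 0). Fits without 1 library called 6 to 2655 genes of all, over the comparisons with T-REX at all times. Against light alone at 3 h and 6 h the UPF3B estimates were 0.11 and 0.14 on the log2 scale, neither called. Its means at 6 h were 69.5 ± 3.09 CPM under T-REX and 69.7 ± 2.71 with DMSO (SD, n = 4). At 12 h they were 64.1 ± 1.72 CPM under T-REX, 66.8 ± 4.41 with probe alone, 61.9 ± 2.06 with light alone and 59.2 ± 3.42 with DMSO. UPF3A stood at 25.6 ± 2.21 CPM under T-REX at 3 h, while DMSO gave 24.3 ± 1.07, probe alone 23.6 ± 1.49 and light alone 23.9 ± 1.96 CPM (SD, n = 4).

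For the SMG1 kinase, the T-REX and DMSO means at 6 h and 12 h differed by less than the SD of the DMSO libraries. It stood at 737 ± 25.6 CPM under T-REX at 6 h against 753 ± 41.7 with DMSO, and at 684 ± 10.6 against 673 ± 26.8 CPM at 12 h (SD, n = 4). At 3 h, where this did not hold, SMG1 stood at 786 ± 67.8 CPM under T-REX against 819 ± 31.2 with DMSO (SD, n = 4). SMG8 was the 1 member whose T-REX libraries did not overlap those of a control. At 3 h, SMG8 stood at 32.97, 36.5, 33.5 and 30.2 CPM under T-REX and at 37.9, 41.04, 39.5 and 37.3 CPM with probe alone, so that every T-REX library was lower (log2 fold change -0.21, standard error 0.069, adjusted p = 0.107). At 12 h, it stood at 29.7, 30.3, 30.1 and 32.5 CPM under T-REX and at 27.4, 28.8, 29.6 and 28.2 CPM with probe alone, so that every T-REX library was higher (log2 fold change 0.10, adjusted p = 0.705). The share of all genes whose libraries did not overlap was 6.93% for light alone, 9.33% for probe alone and 11.3% for DMSO as the control at 3 h. In the same order it was 5.78%, 6.35% and 7.87% at 6 h, and 12.6%, 8.82% and 13.4% at 12 h. SMG9 at 3 h stood at 42.9 ± 1.56 CPM under T-REX and 44.5 ± 4.29 with DMSO (SD, n = 4).

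SMG5 and SMG6 act on phosphorylated UPF1, SMG5 by bringing in decay enzymes and SMG6 by cutting the RNA. SMG5 at 3 h had 147, 175, 167 and 149 CPM under T-REX and 191, 165, 164 and 172 CPM with light alone. These libraries overlapped, with a log2 fold change of -0.12 (standard error 0.056, unadjusted p = 0.0453, adjusted p = 0.325). SMG6 at 12 h had 123, 116, 119.7 and 122 CPM under T-REX and 109, 106, 94.0 and 128 CPM with DMSO. A single DMSO library was above all T-REX libraries, and the log2 fold change was 0.14 (adjusted p = 0.217). Without that library, DMSO replicate 4, SMG6 was called, and without DMSO replicate 1 UPF1 was called, so that each raised the number of members called against DMSO at 12 h from 0 to 1. Over all comparisons with T-REX, fits without 1 library called 6 to 2655 genes of all, against 16 to 1598 in the main fits.

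The controls were compared with each other in the same fits. None of the 9 members was called in any of the 9 comparisons between controls, and 7 of 81 tests had an unadjusted p under 0.05. DESeq2 called 2, UPF1 between light alone and DMSO at 6 h and UPF3B between probe alone and DMSO at 12 h. In these comparisons, 751 to 3422 of the 14685 genes had an unadjusted p of at most 0.05, and DESeq2 called 1 to 1323 genes. The share of all genes called between light alone and DMSO was 0.00681%, 0.00681% and 0.0136% at 3, 6 and 12 h. Between probe alone and DMSO it was 0.00681%, 0.0272% and 5.11%, and between light alone and probe alone 0.232%, 0.0613% and 0.415%. UPF3B at 12 h had 72.1, 67.1, 66.7 and 61.3 CPM with probe alone and 58.4, 61.2, 54.7 and 62.4 CPM with DMSO. The difference, 0.18 on the log2 scale (adjusted p = 0.0698), was as large as that between T-REX and DMSO at 3 h. Without DMSO replicate 4 at 12 h, UPF3B and SMG6 were both called between probe alone and DMSO. Over all comparisons between controls, fits without 1 library called 0 to 1758 genes of all, against 1 to 751 in the main fits.

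The level at 12 h was then compared with that at 3 h within each arm, in 1 fit of all 48 libraries. The labels give no batch, and the time after treatment and the handling of each time point cannot be told apart. In each of the 4 arms 5 of 9 members were called, and 19 of the 20 calls were lower at 12 h. The share of all genes called was 41.7% in T-REX cells (20.6% lower and 21.1% higher) and 38.8% in DMSO cells (18.4% lower and 20.4% higher). It was 39.4% in light alone cells (19% lower and 20.4% higher) and 42.3% in probe alone cells (21% lower and 21.3% higher). UPF3B, SMG1 and SMG5 were called lower in all 4 arms, as were 10.2% of all genes. The median log2 fold change of the members was -0.20 for T-REX, -0.21 for DMSO, -0.18 for probe alone and -0.22 for light alone, while that of all genes lay between -0.01 and 0.01.

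**Figure D4:**
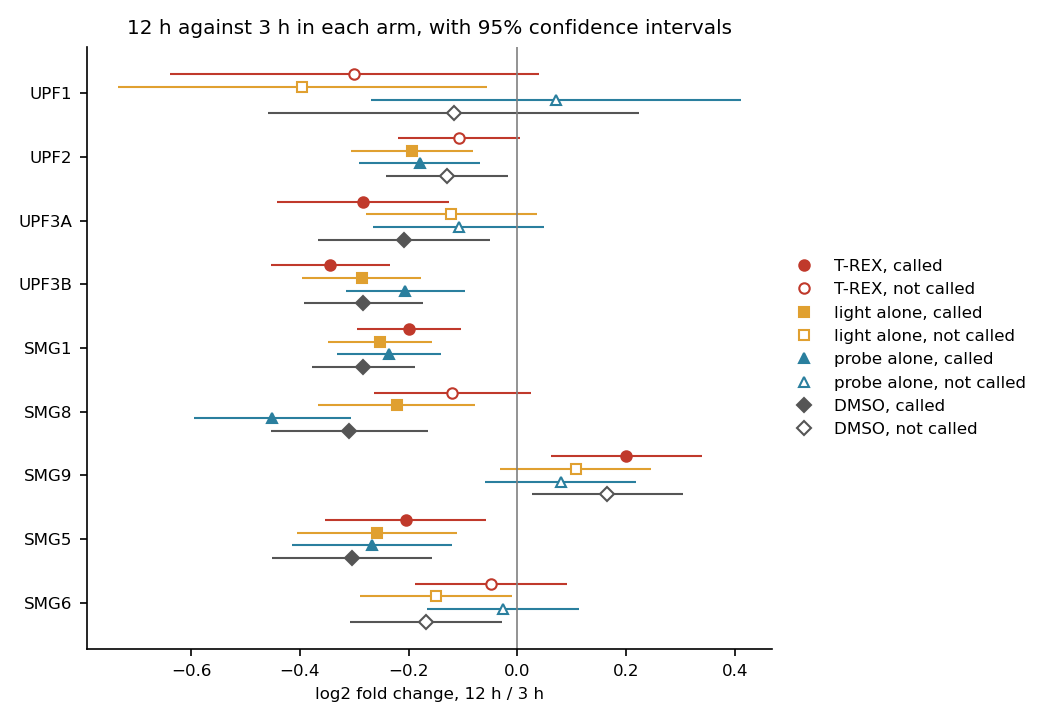
log2 fold change of 12 h over 3 h (points) with 95% confidence intervals (bars) for the 9 members in each arm, where filled points were called. UPF3B, SMG1 and SMG5 were called lower in all 4 arms, with values from -0.34 to -0.20, and SMG9 lay above 0 in every arm.

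UPF3B fell by 13.3% to 21.2% between 3 h and 12 h. Under T-REX the UPF3B libraries went from 89.5, 79.7, 83.1 and 72.9 CPM at 3 h to 63.8, 63.9, 66.3 and 62.2 CPM at 12 h (log2 fold change -0.34, standard error 0.054, adjusted p = 1.24e-06). With DMSO they went from 68.8, 74.6, 67.2 and 77.5 CPM to 58.4, 61.2, 54.7 and 62.4 CPM (-0.28, adjusted p = 4.14e-05). In both arms every library at 12 h lay below every library at 3 h. Light alone (-0.29, adjusted p = 3.35e-05) and probe alone (-0.21, adjusted p = 0.00178) moved the same way.

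SMG1, the kinase, fell by 12.9% to 17.8%. With DMSO, SMG1 had 798, 837, 788 and 854 CPM at 3 h and 633, 685, 683 and 691 CPM at 12 h (log2 fold change -0.28, standard error 0.047, adjusted p = 3.82e-06). Under T-REX it had 855, 827, 706 and 754 CPM at 3 h and 688, 697, 678 and 674 CPM at 12 h (-0.20, adjusted p = 0.000601). The groups did not overlap in either arm. Its mean over the arms was 807 CPM at 3 h, 749 CPM at 6 h and 682 CPM at 12 h, and the 6 h mean lay between the others in all 4 arms.

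SMG5 fell by 13.3% to 19.02%. With DMSO it had 161, 164, 176 and 168 CPM at 3 h and 143, 132, 110.0 and 156 CPM at 12 h (log2 fold change -0.30, standard error 0.074, adjusted p = 0.000813), without overlap. Under T-REX, SMG5 had 141, 128, 134 and 151 CPM at 12 h, and the highest of these lay above the lowest 3 h library. That change (-0.21, adjusted p = 0.0213) was not called without T-REX 3 h replicate 2 or 3, or without T-REX 12 h replicate 2 or 3, with adjusted p up to 0.0900.

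SMG8, which restrains SMG1, was called lower in the 3 controls. The change was -0.22 on the log2 scale with light alone (adjusted p = 0.0116), -0.45 with probe alone (adjusted p = 1.28e-06) and -0.31 with DMSO (adjusted p = 0.000538). Under T-REX, SMG8 changed by -0.12 (95% confidence interval -0.26 to 0.03, adjusted p = 0.181). This does not show that T-REX differed. The test of the difference, the T-REX effect against the mean of the 3 controls at 12 h minus that at 3 h, gave 0.21 (standard error 0.083, unadjusted p = 0.0161, adjusted p = 0.314). No member was called in that test, which called 0.116% of all genes, and SMG8 alone had an unadjusted p under 0.05. Of the 14685 genes, 1621 had an unadjusted p of at most 0.05 in that test.

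The other members changed less evenly. UPF2 was called lower with light alone (-0.19, adjusted p = 0.00439) and probe alone (-0.18, adjusted p = 0.00759), and its estimates under T-REX and DMSO were -0.11 and -0.13. UPF3A was called lower under T-REX (-0.28, adjusted p = 0.00293) and DMSO (-0.21, adjusted p = 0.0309), and the DMSO call was lost without DMSO 3 h replicate 1 or 2 or DMSO 12 h replicate 1 or 3 (adjusted p up to 0.147) and in the fit of only these groups. SMG9, a partner of SMG8 on the kinase, was the 1 member with estimates above 0 in every arm, from 0.08 to 0.20. Its T-REX libraries went from 40.9, 42.6, 43.6 and 44.5 CPM at 3 h to 46.1, 44.5, 50.9 and 55.5 CPM at 12 h (adjusted p = 0.0169), a call that was lost without T-REX 3 h replicate 1 or T-REX 12 h replicate 4 (adjusted p up to 0.126) and in the fit of only these groups. UPF1 and SMG6 were not called in any arm, with estimates from -0.40 to 0.07 for UPF1 and from -0.17 to -0.03 for SMG6.

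The pathway's surroundings were described with 3 further lists. The exon junction complex, which marks splice sites on mRNA, was represented by 11 genes. Over time, 9 of the 11 were called lower for T-REX, 5 for DMSO, 6 for probe alone and 7 for light alone, and 0 were called higher in any arm, with medians from -0.35 to -0.17 on the log2 scale. Of all genes, 18.4% to 21% were called lower and 20.4% to 21.3% higher, depending on the arm. Against the controls, RBM8A, a core subunit that pairs with MAGOH, was lower under T-REX than with light alone (-0.23, adjusted p = 0.0110) and DMSO (-0.23, adjusted p = 0.00336) at 12 h, and stood at -0.14 against probe alone (adjusted p = 0.214). SAP18, a peripheral subunit, was the other gene of this list called with T-REX, against DMSO at 12 h (-0.26, adjusted p = 0.0171). At that time, 1.29% of all genes were called against light alone and 10.9% against DMSO. At 3 h PYM1, which takes the complex apart, had the largest median estimate (0.22) and at 6 h MAGOH (-0.09), and neither was called.

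The list of termination and decay partners held 19 counted genes. Under T-REX, 4 were called higher and 6 lower at 12 h than at 3 h, and in the controls 1 to 3 higher and 6 or 7 lower, beside the same shares of all genes (18.4% to 21% lower and 20.4% to 21.3% higher). With T-REX, genes of this list were called against DMSO and against no other control, 3 lower at 3 h, and 1 higher and 1 lower at 12 h. Of all genes, 5.99% were called against DMSO at 3 h and 10.9% at 12 h. Against light alone or probe alone, only 0.109% to 1.29% of all genes were called, depending on the control and time. The decapping enzyme DCP2 (-0.17, adjusted p = 0.0343), the poly(A) binding protein PABPC1 (-0.22, adjusted p = 0.00976) and the phosphatase subunit PPP2CA (-0.21, adjusted p = 0.0357) were lower at 3 h. The release factor GSPT1 was lower at 12 h (-0.18, adjusted p = 0.0116). CTIF, a factor of translation on NCBP1-bound mRNA, had the largest median estimate at 3 h (0.21), EDC4 at 6 h (-0.14) and DCP1A at 12 h (0.13), and none of these was called.

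The third list held 16 genes with transcripts that the pathway is known to remove, which rise when it is impaired. The counts are per gene, so that these transcripts are not separated from others of the same gene. Over time, 6 to 8 of them were called lower and 1 to 4 higher in each arm, with medians between -0.24 and -0.10 on the log2 scale, where 18.4% to 21% of all genes were called lower and 20.4% to 21.3% higher. At 3 h, ATF3 was called higher against probe alone (0.41, adjusted p = 0.0202) and SRSF2 lower against DMSO (-0.26, adjusted p = 0.0253). At 12 h, ATF4, a stress transcription factor, was higher under T-REX than with light alone (0.23, adjusted p = 0.0251) and DMSO (0.28, adjusted p = 0.00129). SRSF2, a splicing factor, was lower than with light alone (-0.33, adjusted p = 0.00738) and DMSO (-0.47, adjusted p = 8.63e-05) at that time, and SRSF3 was lower than with DMSO (-0.26, adjusted p = 0.00124). The targets called were thus higher in some cases and lower in others. At 6 h, 0 of 16 were called with T-REX, whichever control was used. The share of all genes called at that time was only 0.109% to 0.415%. Beside so small a share, this 0 is not a result about the list. Of all genes, 1.05% were called against probe alone and 5.99% against DMSO at 3 h. At 12 h, 1.29% were called against light alone and 10.9% against DMSO. Genes of this list were also called between controls. With light alone against probe alone at 3 h, 1 of 16 was called higher, beside 0.232% of all genes called. With probe alone against DMSO at 12 h, 2 were called lower, beside 5.11% of all genes called. GADD45B at 3 h (median 0.48), SAT1 at 6 h (0.22) and SNHG12 at 12 h (-0.33) had the largest median estimates and were not called. The genes of these lists named here that were called against only 1 control were chosen after their values were seen.

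For each member, the gene with the most similar pattern was found by the Pearson correlation of log2 CPM over the 12 means of arm and time. These were IRAK1 for UPF1 (r = 0.982), MAP2K4 for UPF2 (0.976), RRP7BP for UPF3A (0.960), WDR73 for UPF3B (0.984), YTHDF2 for SMG1 (0.987), SEPHS2 for SMG8 (0.960), AP5B1 for SMG9 (0.955), ZNF142 for SMG5 (0.992) and SAMD4B for SMG6 (0.927). The means share libraries and time points, and each gene is the highest outside the members among 10134 genes with a mean log2 CPM above 3.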

How the data were processed

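RNA from 48 libraries, 4 for each of 4 arms at 3 time points, was analysed as the counts per gene that the authors deposited for each time point, which are not normalized. The authors also deposited log2 CPM and RUV-corrected log2 CPM, not used here, and 2 RUV factors per library, a score that the authors give in tables of sample descriptions. The study's Reporting Summary lists cutadapt, TopHat and Cufflinks. The genome build and counter are not given in the sources used here, so no gene positions are printed. Libraries were stranded and depleted of ribosomal RNA. The study describes the repeats as independent and biological, and p-values measure the spread between them.

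The tests were run with edgeR 4.0.16 under R 4.3.3 (TMM, filterByExpr, which removed 0 genes, and robust quasi-likelihood F-tests), on 16 libraries per time point, or all 48 for 12 h against 3 h. p-values were adjusted over 14685 genes within each comparison by the Benjamini-Hochberg method, and a gene was called at an adjusted p of 0.05 or less. DESeq2 1.42.0 was an alternative. Log2 CPM used a prior count of 2. Figures were made in Python 3.11.15. GENCODE 29, in which 14556 identifiers were found, gave exon lengths and GC content. Symbols came from a list of current gene names, and from GENCODE 29 where that list had none. Total counts of 23952455 to 37099535 leave counting error below the spread between libraries. In all 72 pairs of replicates the counts differed beyond counting error.

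The members and lists were chosen with earlier results of these data known. Named genes are all members, NCBP1, list genes called in 1 direction against at least 2 of 3 controls, the list gene with the largest median log2 fold change over the controls at each time, and the gene most like each member. List genes called against only 1 control were named after their values were seen. A gene of the list of termination and decay partners is not reported here by name.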

Additional observations from a re-analysis of the deposited data

Results flagged for a closer look

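Each member was examined in each group of 4 libraries, 108 groups in all, for a library far from the other 3, and 2 were found, where chance flags about 1 in 20 groups. UPF3B with probe alone at 3 h stood at 79.7 CPM in replicate 3, against 76.0 to 76.5 CPM in the others. SMG1 with DMSO at 12 h stood at 633 CPM in replicate 1, against 683 to 691 CPM in the others.

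SMG8 was lower in every T-REX library than in every probe alone library at 3 h (log2 fold change -0.21) and higher in every one at 12 h (0.10). The difference between these 2 effects against probe alone was not tested. Against the mean of the 3 controls the corresponding difference was 0.21 (edgeR's quasi-likelihood test, adjusted p = 0.314).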

How the results depend on the processing

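No estimate of a member that was called changed direction under any alternative. With the RUV factors as covariates, the number of members called with T-REX rose from 0 to 2 against probe alone and DMSO at 3 h, and to 1 against light alone and DMSO at 6 h and DMSO at 12 h. Between controls, it rose to 1 (light alone against DMSO) and 2 (light alone against probe alone) at 3 h. At 6 h it rose to 3 (light alone against DMSO), 1 (probe alone against DMSO) and 2 (light alone against probe alone), and at 12 h to 2 (probe alone against DMSO). Those covariates called between 257 and 3925 genes of all with T-REX, against 16 to 1598 without them. Between controls they called 183 to 3298 genes of all, against 1 to 751 without them. DESeq2 called 1 member between light alone and DMSO at 6 h and 1 between probe alone and DMSO at 12 h. Of all genes, it called 1 to 1323 in the comparisons between controls. Leaving out 1 library at a time gave 0 to 1 members for T-REX against DMSO at 3 h and at 12 h, and 0 to 2 for probe alone against DMSO at 12 h. Of all genes, fits without 1 library called 6 to 2655 with T-REX and 0 to 1758 between controls. RLE factors, no filter on low counts and fits of only the 2 arms compared called 0 members in every comparison of arms. Of all genes, those settings called 3 to 1622 with T-REX and 0 to 753 between controls. The test of the T-REX effect between 12 h and 3 h called 0 members in each fit made of it, beside 0 to 81 genes of all. Over time, every alternative called between 4 and 7 members in each arm, beside 4436 to 7090 genes of all. The median log2 fold change of all genes stayed between -0.021 and 0.039 in all these fits.

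Replicate numbers did not pair the libraries over the series. Of 72 pairs of same-numbered libraries, 31 had correlated deviations (r over 0.1), and r ran from -0.636 to 0.572. T-REX against probe alone at 6 h was the 1 comparison of arms in which all 4 pairs passed (r from 0.1004 to 0.474). The fit with the replicate number as a block (replicate block) called 0 members in each comparison of arms and 5 to 7 members in each arm over time. Of all genes, it called 13 to 1488 with T-REX, 1 to 643 between controls and 5779 to 6274 over time.

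Among the members, counting error weighs most on UPF3A, with as few as 549 counts in a library. Its pooled SD within arms stood at the 41.6th percentile of 10134 genes. SMG9 under T-REX and UPF3A with DMSO were not called over time in the fit of only the 2 groups compared.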
